A study of Mus musculus with 30 samples.

Results

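NRF2 and the detoxification enzymes were followed through 9 genes in the oral carcinoma lines MOC1 and MOC1E1: Aldh3a1, Gsto1, Gsta4, Nqo1, Hmox1, Gclc, Gclm, Txnrd1 and Srxn1. They were taken by name from the 55573 genes of the bulk RNA tables, and all 9 were present and passed the filter on low values in tumours and in cultures. The name of the group rests on what these genes are known for and not on a measurement of NRF2 protein or activity.

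MOC1 and MOC1E1 (MOC1esc1 in part of the labels) are mouse oral squamous cell carcinoma models, and the mice were C57BL/6J. Bulk RNA came from untreated MOC1 tumours, untreated MOC1E1 tumours, cultured MOC1 cells and cultured MOC1E1 cells, with 3 libraries in each of the 4 groups. Cells were grown in IMDM and Ham's F12 medium with serum, EGF, hydrocortisone and insulin. The labels state no treatment for the cultures, whereas the column names of the culture table contain the letters "plusifng" in both lines, so the state of the cultured cells is not settled by the sources used here. Immune cells of MOC1E1 tumours were also profiled as single cells in 3 libraries, 1 for each antibody given to the mice: anti-CTLA-4, anti-PD-1 or an isotype control. These were injected intraperitoneally on days 3, 6 and 9 after the tumour cells. Ages, the number of animals and the number of culture passages behind the libraries are not given in the sources used here, so p-values measure only the spread between these libraries.

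NRF2, encoded by Nfe2l2, is a transcription factor that KEAP1 holds back and marks for destruction in unstressed cells. Electrophiles and oxidants modify KEAP1, NRF2 then accumulates, pairs with small MAF proteins and binds antioxidant response elements in the promoters of genes for glutathione synthesis, conjugation, thiol repair and quinone reduction. In squamous cancers this pathway is often mutated, and in macrophages it is known for the breakdown of haem. Not all of these genes answer to NRF2 alone: Aldh3a1 and Nqo1 are also classical targets of the aryl hydrocarbon receptor, and BACH1 represses Hmox1.

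The tables give TPM, a level per transcript length that is scaled to a fixed total in each library and can be set side by side between genes. Tests compared log2(TPM + 1) with limma. A called gene is one whose p, adjusted over every gene tested, did not exceed 0.05. A log2 difference is MOC1E1 minus MOC1 throughout, and a ratio is one of mean TPM. In tumours 5 of the 9 genes were called, 4 lower and 1 higher in MOC1E1, against 18.6% of all 15125 genes tested, 11.9% lower and 6.7% higher. In such bulk samples fewer cells of a type and less RNA per cell cannot be told apart. In cultures 8 of the 9 were called, 6 higher and 2 lower, against 53.4% of all 13975 genes, 20.2% higher and 33.2% lower. The median log2 difference of the 9 genes was -0.538 in tumours, where that of all tested genes was -0.036, and 0.31 in cultures, where that of all genes was -0.0618.

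**Figure D1:**
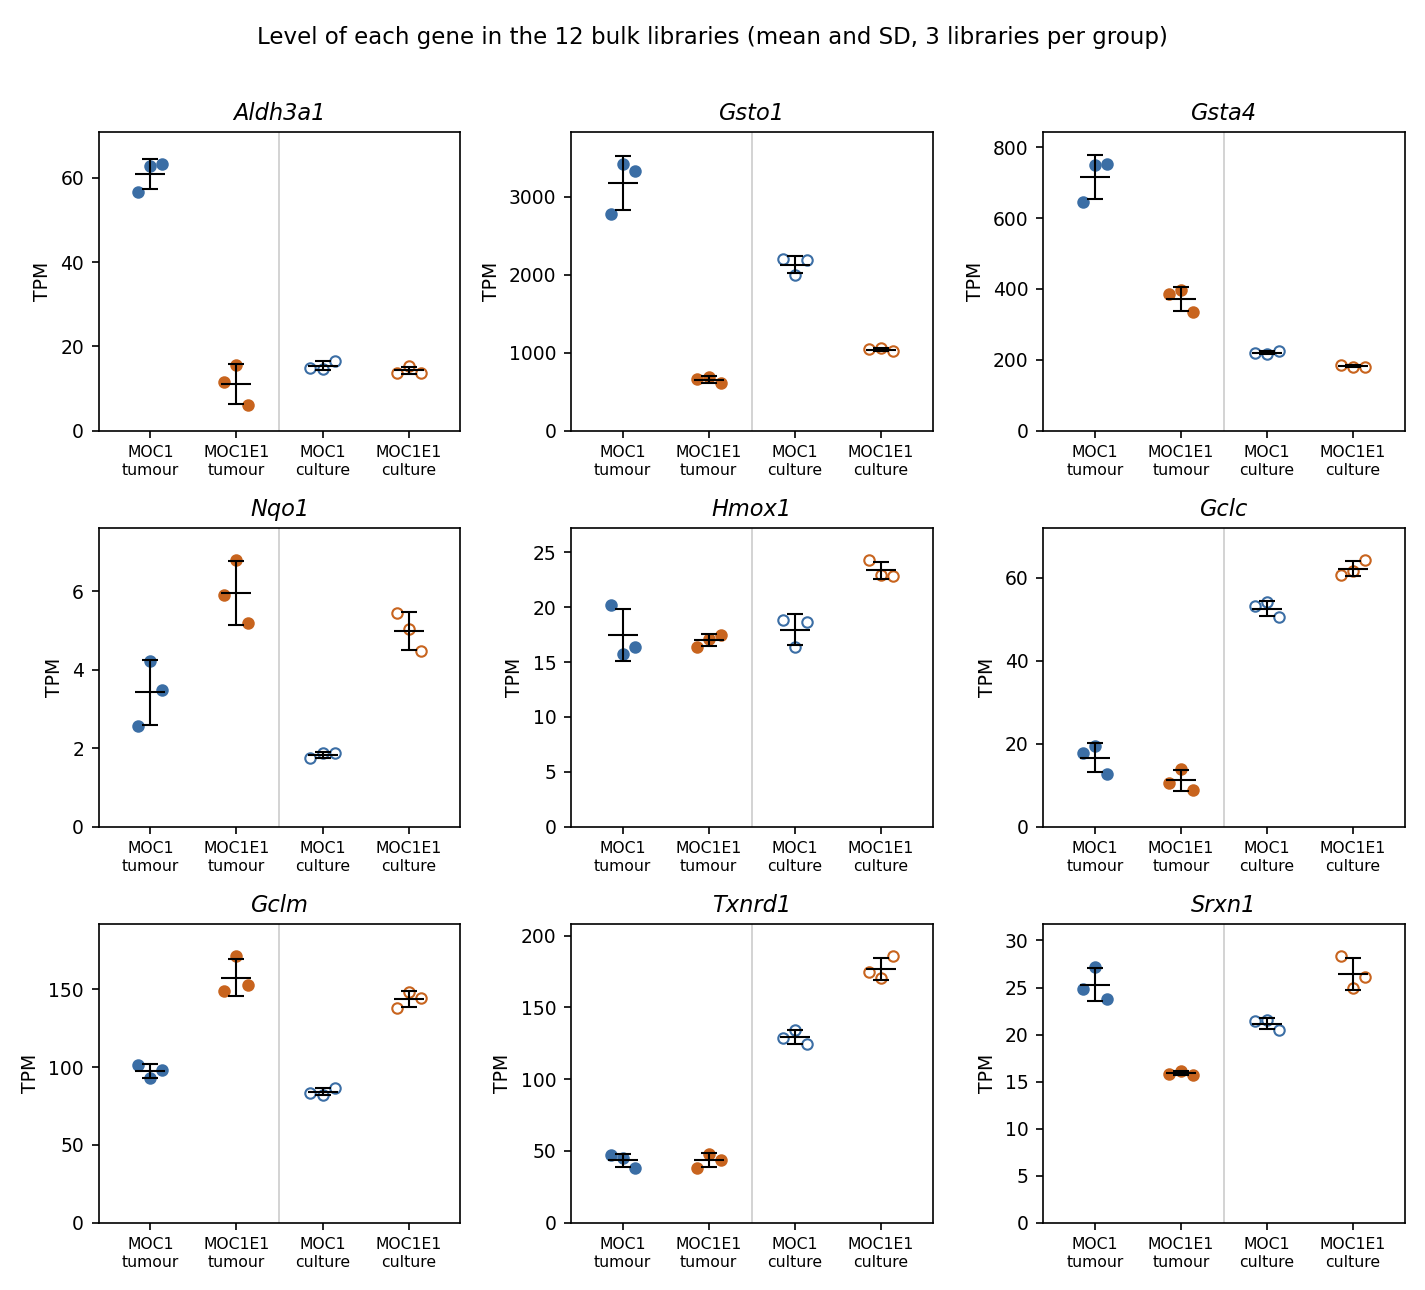
TPM of each of the 9 genes in the 12 bulk libraries, with filled points for tumours, open points for cultures, blue for MOC1 and orange for MOC1E1; horizontal bars are means and error bars SDs over 3 libraries, and each panel has its own axis from 0. Aldh3a1 and Gsto1 stand apart in MOC1 tumours, with means of 60.9 and 3174 TPM against 11 and 654.9 TPM in MOC1E1 tumours.

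The largest differences among the 9 genes in tumours were those of enzymes that dispose of aldehydes and conjugate or reduce xenobiotics. Aldh3a1, an aldehyde dehydrogenase that oxidises aldehydes from lipid peroxidation, lies at chr11:61208510-61218418 (GRCm38.p6, as are all positions given here). Its level was 56.7, 62.7 and 63.2 TPM in the MOC1 tumours and 11.5, 15.45 and 6.03 TPM in the MOC1E1 tumours. The lowest MOC1 tumour was above the highest MOC1E1 tumour, and the MOC1E1 tumours varied more among themselves. Mean levels were 60.9 ± 3.65 TPM (SD, n = 3) and 11 ± 4.73 TPM (SD, n = 3), a 5.54-fold lower level in MOC1E1 with a log2 difference of -2.45 (SE 0.278, limma adjusted p = 0.00169). In the cultures the libraries overlapped, at 14.9, 14.6 and 16.6 TPM in MOC1 and 13.75, 15.3 and 13.8 TPM in MOC1E1. The culture difference was -0.102 (95% interval -0.281 to 0.0771, limma adjusted p = 0.297). The tumour difference minus the culture difference was -2.35 on the log2 scale (SE 0.323, limma adjusted p = 0.000547), tested over all 12 libraries in 1 fit.

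Gsto1, an omega-class glutathione transferase with thiol transferase and dehydroascorbate reductase activity, had the highest level of the 9 genes in every bulk group; it lies at chr19:47854973-47864790. The MOC1 tumours held 2782, 3417 and 3323 TPM and the MOC1E1 tumours 668, 690.45 and 607 TPM. In cultures MOC1 cells held 2202, 1999.9 and 2186 TPM and MOC1E1 cells 1044, 1058 and 1017 TPM. At both sites every MOC1 library was above every MOC1E1 library. The level in MOC1E1 was 4.85-fold lower in tumours (log2 difference -2.27, SE 0.0991, limma adjusted p = 2.94e-05) and 2.05-fold lower in cultures (-1.03, SE 0.051, limma adjusted p = 4.67e-06). The difference between the sites, tumours minus cultures, was -1.24 (SE 0.115, limma adjusted p = 3.65e-05), and -0.701 under quantile normalization (limma adjusted p = 0.00454).

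Gsta4, an alpha-class glutathione transferase specialised for 4-hydroxynonenal, an end product of lipid peroxidation, lies at chr9:78191966-78209349. Levels were 645, 750.5 and 753 TPM in MOC1 tumours and 385, 398 and 335 TPM in MOC1E1 tumours. Cultured MOC1 cells had 218, 216 and 225 TPM and cultured MOC1E1 cells 185, 180.6 and 180.2 TPM. The lines did not overlap at either site, and tumours of both lines lay above both cultures. The ratio was a 1.92-fold lower level in MOC1E1 tumours (log2 difference -0.942, SE 0.0974, limma adjusted p = 0.00115) and a 1.21-fold lower level in MOC1E1 cultures (-0.271, SE 0.0388, limma adjusted p = 0.000923), with a difference between the sites of -0.671 (limma adjusted p = 0.00142). The alpha-class genes are close in sequence, and how the authors' pseudoalignment divided reads among them was not tested; the same holds for the other glutathione transferases named here.

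Glutathione synthesis starts with glutamate-cysteine ligase, which is made of a catalytic subunit, Gclc, and a modifier subunit, Gclm, that raises its affinity for glutamate. Gclm (chr3:122245487-122267215) was higher in MOC1E1 at both sites. MOC1 tumours held 101, 92.8 and 98 TPM and MOC1E1 tumours 149, 171 and 152 TPM, while MOC1 cultures held 83.6, 82.1 and 86.5 TPM and MOC1E1 cultures 138, 148 and 145 TPM. No library of one line overlapped those of the other. The rise was 1.62-fold in tumours (log2 difference 0.686, SE 0.0843, limma adjusted p = 0.00234) and 1.71-fold in cultures (0.765, SE 0.046, limma adjusted p = 1.31e-05). The difference between the sites was -0.0791 (95% interval -0.277 to 0.118, limma adjusted p = 0.612).

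Gclc (chr9:77754535-77794489) did not move with its partner subunit in tumours. The MOC1 tumours had 17.7, 19.45 and 12.8 TPM and the MOC1E1 tumours 10.6, 13.9 and 8.96 TPM, so the groups overlapped. The tumour difference was -0.538 (95% interval -1.01 to -0.0657, limma adjusted p = 0.105). Cultured cells had 53.2, 54.1 and 50.5 TPM in MOC1 and 60.8, 61.6 and 64.3 TPM in MOC1E1, a 1.18-fold higher level without overlap (log2 difference 0.238, SE 0.0491, limma adjusted p = 0.00514). With the spread taken from all 12 libraries the calls changed places, since the culture difference then had a limma adjusted p of 0.24 and the tumour difference one of 0.017. The difference between the sites was -0.776 (SE 0.218, limma adjusted p = 0.031), and it lost its call in 11 of 19 alternative settings, 10 of which leave out 1 library (limma adjusted p from 0.0519 to 0.0709).

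Srxn1 encodes sulfiredoxin, which restores overoxidised peroxiredoxins, and lies at chr2:152105524-152111376. It was lower in MOC1E1 tumours and higher in MOC1E1 cultures. MOC1 tumours had 24.8, 27.2 and 23.8 TPM and MOC1E1 tumours 15.8, 16.1 and 15.7 TPM. In cultures MOC1 cells had 21.4, 21.5 and 20.45 TPM and MOC1E1 cells 28.3, 25.0 and 26.1 TPM. Neither pair of groups overlapped, and the order of the lines was opposite at the 2 sites. The log2 difference was -0.636 in tumours (SE 0.103, limma adjusted p = 0.00656) and 0.31 in cultures (SE 0.0638, limma adjusted p = 0.00513), ratios of 1.59-fold lower and 1.25-fold higher. Tumours minus cultures, the difference was -0.946 (SE 0.105, limma adjusted p = 0.000127).

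Txnrd1 encodes the cytosolic thioredoxin reductase, a selenoprotein that passes electrons from NADPH to thioredoxin, and lies at chr10:82833951-82897724. Its levels in tumours overlapped, at 46.9, 45.4 and 37.95 TPM in MOC1 and 38.5, 48.1 and 44.0 TPM in MOC1E1. The tumour difference was 0.00282 (95% interval -0.282 to 0.288, limma adjusted p = 0.991). Cultured MOC1 cells had 129, 135 and 125 TPM and cultured MOC1E1 cells 175, 170.2 and 186 TPM. The cultures of the 2 lines were apart, all above every tumour, and the MOC1E1 level was 1.37-fold higher (log2 difference 0.448, SE 0.0507, limma adjusted p = 0.000292). Between the sites the differences were apart by -0.445 (SE 0.132, limma adjusted p = 0.0395), a call lost in 12 of 19 alternative settings, 10 of which leave out 1 library (limma adjusted p from 0.0507 to 0.0943).

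Nqo1 and Hmox1 are the enzymes most often read as marks of NRF2 activity. Nqo1 reduces quinones by transferring an electron pair at once, which avoids semiquinone radicals, and lies at chr8:107388225-107403205. It had the lowest level of the 9 genes in every group. MOC1 tumours held 2.56, 4.22 and 3.49 TPM and MOC1E1 tumours 5.9, 6.79 and 5.18 TPM, and cultured MOC1 cells held 1.75, 1.88 and 1.88 TPM against 5.45, 5.03 and 4.49 TPM in cultured MOC1E1 cells. Every MOC1E1 library lay above every MOC1 library of its site. In cultures Nqo1 was 2.72-fold higher in MOC1E1 (log2 difference 1.08, SE 0.0987, limma adjusted p = 0.000108). In tumours the ratio was 1.74 and the log2 difference 0.664 (95% interval 0.216 to 1.11), just outside the threshold at a limma adjusted p of 0.0504. It was called in tumours under 5 of 13 alternatives, among them libraries scaled to the same median (0.713, limma adjusted p = 0.0364). The difference between the sites was -0.411 (95% interval -0.87 to 0.0477, limma adjusted p = 0.216).

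Hmox1 encodes haem oxygenase 1, which opens haem to biliverdin, iron and carbon monoxide, and lies at chr8:75093618-75100593. Its tumour levels overlapped, at 20.2, 15.8 and 16.4 TPM in MOC1 and 16.4, 17.1 and 17.4 TPM in MOC1E1, with a difference of -0.0286 (95% interval -0.321 to 0.264, limma adjusted p = 0.898). Cultured MOC1 cells had 18.9, 16.35 and 18.6 TPM and cultured MOC1E1 cells 24.3, 23.0 and 22.9 TPM. The culture groups were apart, with a 1.3-fold higher level in MOC1E1 (log2 difference 0.365, SE 0.0711, limma adjusted p = 0.00396). The difference between the sites was -0.394 (95% interval -0.693 to -0.095, limma adjusted p = 0.0713).

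**Figure D2:**
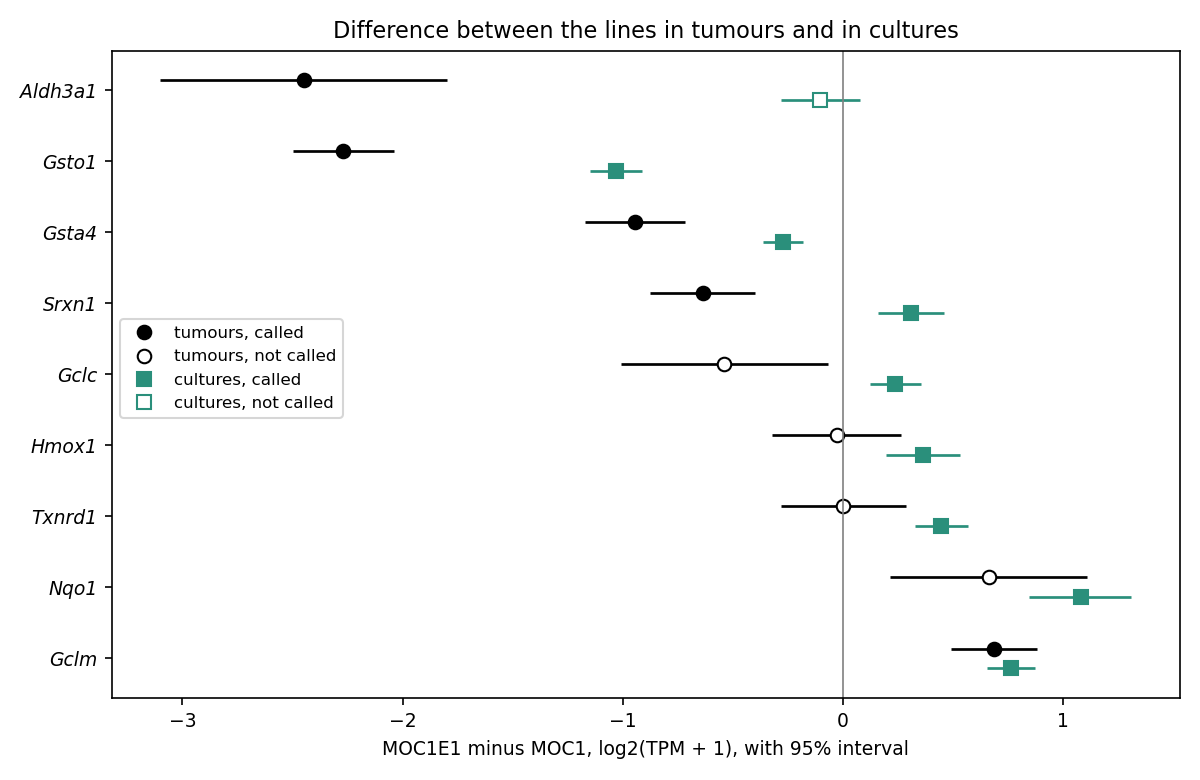
Log2 difference of each gene, MOC1E1 minus MOC1 on the log2(TPM + 1) scale, in tumours (circles) and in cultures (squares), with lines for 95% intervals and filled symbols for called genes. The genes are ordered by the tumour difference, from -2.45 for Aldh3a1 to 0.686 for Gclm, and the culture value lies above the tumour value for each of the 9 genes.

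Set against each other, the tumour difference was lower than the culture difference for all 9 genes. The test of that difference called 6 of them lower, Aldh3a1, Gsto1, Srxn1, Gsta4, Gclc and Txnrd1, against 6.61% of the 16813 genes tested (16.8% called in either direction). Across all alternatives 4 to 7 of the 9 were called lower. In tumours 6 of the 9 genes, and in cultures 8, had groups that did not overlap, where 39.1% and 61.1% of all tested genes did the same.

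Tumour RNA holds other cells beside the carcinoma. Markers of squamous carcinoma summed to 18910 to 20110 TPM in MOC1 tumours and 17740 to 19220 TPM in MOC1E1 tumours, with 2 of 9 higher and 1 lower in MOC1E1. All 5 skeletal muscle markers were lower in MOC1E1 tumours, with sums of 1.98 to 46.9 TPM against 289 to 1051 TPM. Of the neutrophil markers 4 of the 5 tested were lower, with sums of 15.7 to 67.3 TPM against 216 to 272 TPM, and of the macrophage markers 3 of 10 (Mrc1, Cd68 and, lost in 9 of 14 alternatives, C1qa), with sums of 439.7 to 635 TPM against 719 to 755 TPM. No T cell marker of 8 and no fibroblast marker of 7 was called by limma, with 0 and 1 at an unadjusted p below 0.05, and their sums overlapped between the lines. In cultures the summed macrophage markers were at most 7.69 TPM and the summed neutrophil markers at most 2.12 TPM, so the culture values of the 9 genes stand almost free of those cells. The part of these cells in the tumour differences of the 9 genes was not tested. Gsto1, Gsta4 and Gclm moved in the same direction in both tumours and cultures.

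**Figure D3:**
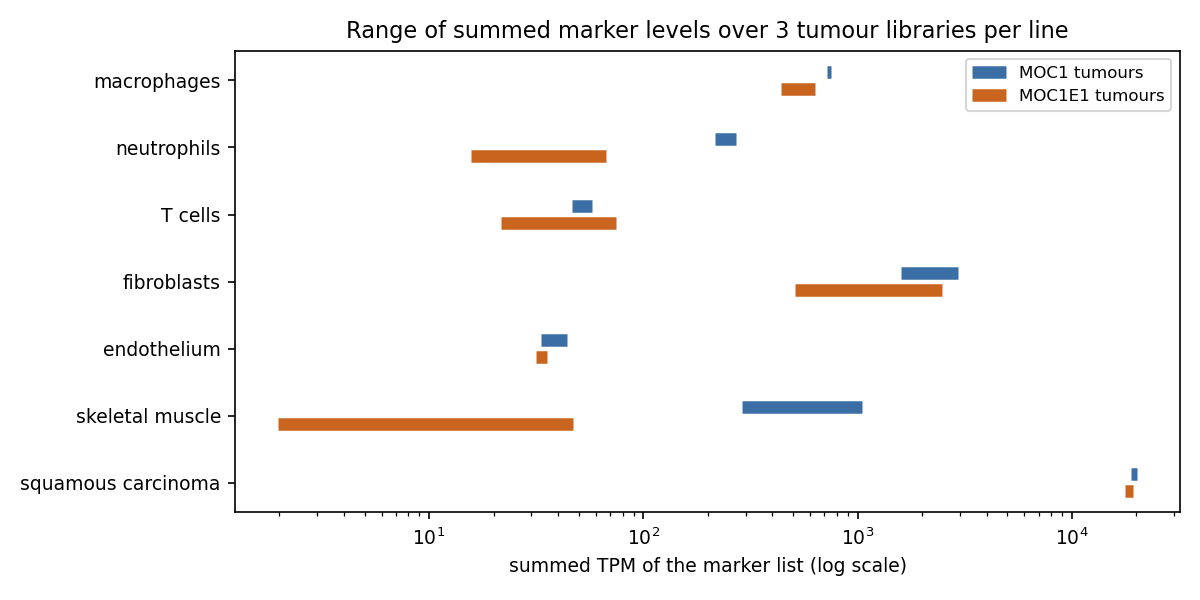
Range of the summed TPM of each marker list over the 3 tumour libraries of a line, on a log axis, with blue bars for MOC1 and orange bars for MOC1E1. Neutrophil, skeletal muscle and macrophage sums of the lines do not overlap, whereas T cell and fibroblast sums do.

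Of the genes that were higher in MOC1E1 cultures, Gclm, Txnrd1 and Srxn1 have a RefSeq promoter window with a match to the antioxidant response element core or to the longer MAF-type form, and these windows are printed here to show where. The windows run from 250 bases before an annotated start (RefSeq, GRCm38.p6) and were searched on both strands for TGACNNNGC and TGANTCAGC. Windows were found for 5 of the 9 genes, 7 windows in all because Txnrd1 has 3, and the other windows, of Gsto1, Nqo1 and the remaining starts of Txnrd1, hold neither form. Over 32851 windows of the same length, 10.2% hold TGACNNNGC, 1.02% hold TGANTCAGC and 10.7% hold either, as do 3 of the 7 windows here. The 9 genes were taken for what they are known for, so setting these shares side by side is no test. Bases farther from the start were not searched. Capitals mark the match, and where it lies on the opposite strand the letters shown are its complement read 5′ to 3′ on the gene's strand. For Gclm, at chr3:122245307-122245486 on the plus strand, TGACGGTGC reads on the minus strand from 134 to 126 bases before the window's start site. For Txnrd1, at chr10:82858956-82859205 on the plus strand, TGACAAAGC reads on the minus strand from 92 to 84 bases before. For Srxn1, at chr2:152105274-152105523 on the plus strand, TGAGTCAGC reads on the plus strand from 45 to 37 bases before. The Gclm window is cut where the annotated gene begins.
Gclm: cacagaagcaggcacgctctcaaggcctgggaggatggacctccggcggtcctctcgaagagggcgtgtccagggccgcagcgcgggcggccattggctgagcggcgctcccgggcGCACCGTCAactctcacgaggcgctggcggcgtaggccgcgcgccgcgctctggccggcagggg
Txnrd1: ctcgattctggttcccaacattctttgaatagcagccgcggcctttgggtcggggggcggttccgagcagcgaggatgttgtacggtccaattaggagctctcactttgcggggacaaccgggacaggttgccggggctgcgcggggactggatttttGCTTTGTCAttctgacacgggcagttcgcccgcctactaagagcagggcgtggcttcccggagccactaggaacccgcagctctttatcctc
Srxn1: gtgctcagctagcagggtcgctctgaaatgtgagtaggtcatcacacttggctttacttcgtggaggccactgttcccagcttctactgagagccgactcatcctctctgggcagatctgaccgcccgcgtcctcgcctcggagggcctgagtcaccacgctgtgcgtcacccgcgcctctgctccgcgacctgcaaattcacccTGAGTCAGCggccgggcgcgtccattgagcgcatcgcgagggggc
The core GCGTG, which the aryl hydrocarbon receptor binds, is in the windows of Gclm and Srxn1 and in all 3 of Txnrd1. It is in 28.2% of all windows. Base composition, with 78.4% G and C in the Gclm window of 250 bases, was not taken into account. A match of letters is a description of the window and not a site in use, and Gclm, Txnrd1 and Srxn1 differed in tumours, where they were higher, not called and lower in MOC1E1.

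The regulators above the enzymes were read from a list of 12 genes. Nfe2l2 itself was at 96.5 ± 7.35 TPM (SD, n = 3) in MOC1 tumours and 100.1 ± 6.89 TPM (SD, n = 3) in MOC1E1 tumours, with a log2 difference of 0.0521 (95% interval -0.161 to 0.265, limma adjusted p = 0.727). In cultures its difference was -0.047 (limma adjusted p = 0.386). Keap1, which holds NRF2 back, had differences of 0.301 in tumours (limma adjusted p = 0.195) and 0.0789 in cultures (limma adjusted p = 0.394), though the culture value was called when libraries were scaled to the same median (0.207). Nfe2l2 and Keap1 were singled out after their values were seen. Of the 12 tested regulators 2 were lower in MOC1E1 tumours, the NRF2 relative Nfe2l3 (-1.71, limma adjusted p = 0.00435) and the small MAF gene Mafk (-0.424, limma adjusted p = 0.021). Of the 11 tested in cultures 5 were lower, with Nfe2l1 (-0.896), Sqstm1, whose p62 protein draws KEAP1 into autophagy (-0.578), and Mafk (-0.519) at the smallest p. The median log2 difference of the list was -0.0897 in tumours and -0.27 in cultures, against -0.036 and -0.0618 over all tested genes. Of all tested genes 11.9% were called lower in tumours and 33.2% in cultures. The tumour call of Mafk was lost without MOC1 tumour 3 or 4 or MOC1E1 tumour 1 or 2, with limma adjusted p from 0.0535 to 0.0824.

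Counts in the lists that follow leave the 9 genes out, and each median is a log2 difference over the tested genes of a list. Over all tested genes 11.9% were called lower and 6.7% higher in tumours, and 33.2% lower and 20.2% higher in cultures. Several list counts lie near these shares, and no list was tested as a set. In glutathione synthesis and recycling 2 of 13 tested genes were lower in MOC1E1 tumours, the glutaredoxin Glrx (-1.11, limma adjusted p = 0.00185) and the glutathione reductase Gsr (-0.391, limma adjusted p = 0.0158), with a median of -0.226. Gsr lost its call without MOC1 tumour 4 or MOC1E1 tumour 1 or 2, with limma adjusted p from 0.0537 to 0.066. In cultures 4 of 11 were higher and 3 lower, among the latter Glrx (-2.11) and Chac1, which degrades glutathione (-1.16), with a median of -0.0322. The Gclm rise was thus accompanied by lower Glrx at both sites. Among the glutathione transferases 6 of 18 were lower and 3 higher in tumours, and 6 of 13 lower and 3 higher in cultures, with medians of -0.176 and -0.242. Gsta3 was lower in MOC1E1 tumours (-2.06, limma adjusted p = 0.000382) and cultures (-2.84, limma adjusted p = 7.83e-07), as were Gsto1 and Gsta4, while Gstm1 was higher in cultures (2.23, limma adjusted p = 1.04e-06).

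In the thioredoxin and peroxiredoxin system, the setting of Txnrd1 and Srxn1, 1 of 14 genes was higher and 1 lower in tumours, Sesn1 (0.966, limma adjusted p = 0.015) and the mitochondrial and peroxisomal peroxiredoxin Prdx5 (-0.604, limma adjusted p = 0.0049). In cultures 7 of 14 were higher and 6 lower, and the 3 with the smallest p were all lower, the sestrins Sesn2 (-1.67) and Sesn3 (-1.68) and Prdx5 (-0.967). The medians were -0.0482 in tumours and 0.0998 in cultures, and Sesn1 lost its call without MOC1 tumour 4 or 5 (limma adjusted p = 0.0589 and 0.053). Haem and iron handling, the setting of Hmox1, had 3 of 12 lower in tumours, the biliverdin reductase Blvrb (-0.641), haptoglobin Hp (-1.72) and the ferritin light chain Ftl1 (-0.28), with a median of -0.306. The calls of Hp and Ftl1 were lost in most fits that left out 1 tumour library, with limma adjusted p from 0.0519 to 0.0857 for Hp and from 0.0541 to 0.109 for Ftl1. In cultures 5 of 10 were higher and 1 lower, with the transferrin receptor Tfrc (0.865) and the ferritin heavy chain Fth1 (0.335) higher, beside Hmox1, and the iron transporter Slc11a2 lower (-0.539); the median was 0.185. Nqo1, Txnrd1 and Gsr consume NADPH. The list for its supply held 11 tested enzymes of the pathways involved, not all of which make NADPH themselves. Of these 11, 5 were lower and 2 higher in tumours and 4 lower and 2 higher in cultures (medians -0.184 and 0.105). G6pdx, the entry enzyme of the pentose phosphate pathway, was lower by -0.784 in tumours (limma adjusted p = 0.00112) and by -0.763 in cultures (limma adjusted p = 2.59e-05). Me1 was lower (-0.818) and Mthfd1 higher (0.499) in tumours, calls lost without MOC1 tumour 4 (limma adjusted p = 0.0515 and 0.0529), and Mthfd2 (-0.658) and Idh2 (-0.478) were lower in cultures.

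Of the 25 aldehyde dehydrogenases and aldo-keto reductases tested in tumours besides Aldh3a1, 7 were lower, 4 higher and 14 not called (median -0.105, or 0.00116 under quantile normalization), with Aldh1a3, which makes retinoic acid, at -1.94 (limma adjusted p = 0.000148) and Aldh3b2 at -1.79 (limma adjusted p = 0.00162). In cultures 12 of 21 were lower and 3 higher (median -0.485). The counts were 11 lower and 7 higher with libraries scaled to the same median (median -0.357) and 10 lower and 6 higher under quantile normalization (median -0.282). The smallest p belonged to Akr1b3 (-1.31), Akr1b8 (-1.44) and Aldh1a1 (-1.83), while Aldh3a1 was not called there. Of the quinone and xenobiotic reductases, conjugation and export genes around Nqo1, 6 of 24 were lower and 3 higher in tumours (median -0.183), with the sulfotransferase Sult2b1 (-1.17) and the P450 reductase Por (-0.652) lower and the carbonyl reductase Cbr2 higher (0.917). In cultures 8 of 18 were lower and 1 higher (median -0.172), with Ugt1a6a (-1.8), Ephx2 (-1.66) and the efflux pump Abcg2 (-0.983) lower, opposite to Nqo1. The aryl hydrocarbon receptor list, without Nqo1 and Aldh3a1, had no limma call among 5 tested genes in tumours, with 2 at an unadjusted p below 0.05 and a median of -0.0631. In cultures 3 of its 5 were higher and 1 lower, with Cyp1b1 higher (0.787) and the receptor gene Ahr lower (-0.802), and the median was 0.262.

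A further list of NRF2 target genes had 9 of 24 lower and 4 higher in tumours (median -0.182), the decoy receptor Tnfrsf11b (-1.52, limma adjusted p = 6.72e-05) and Osgin1 (-1.38, limma adjusted p = 0.00111) at the smallest p together with G6pdx. In cultures 10 of 23 were lower and 6 higher (median -0.114), with Pir at -1.6 and the metallothioneins Mt1 and Mt2 at 1.64 and 1.4. When libraries were scaled to the same median, the median log2 difference of all genes in cultures moved from -0.0618 to 0.066, and this last list then had 9 higher and 7 lower with a median of 0.014. The culture NADPH list then had 6 higher and 3 lower, the culture thioredoxin and peroxiredoxin list 7 higher and 3 lower and the culture glutathione transferases 5 higher and 6 lower, and the culture median of glutathione synthesis and recycling was 0.0957. Under quantile normalization the tumour counts became 5 lower and 5 higher for the glutathione transferases, 4 and 4 for the NADPH genes and 1 lower and 4 higher for the thioredoxin and peroxiredoxin system.

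**Figure D4:**
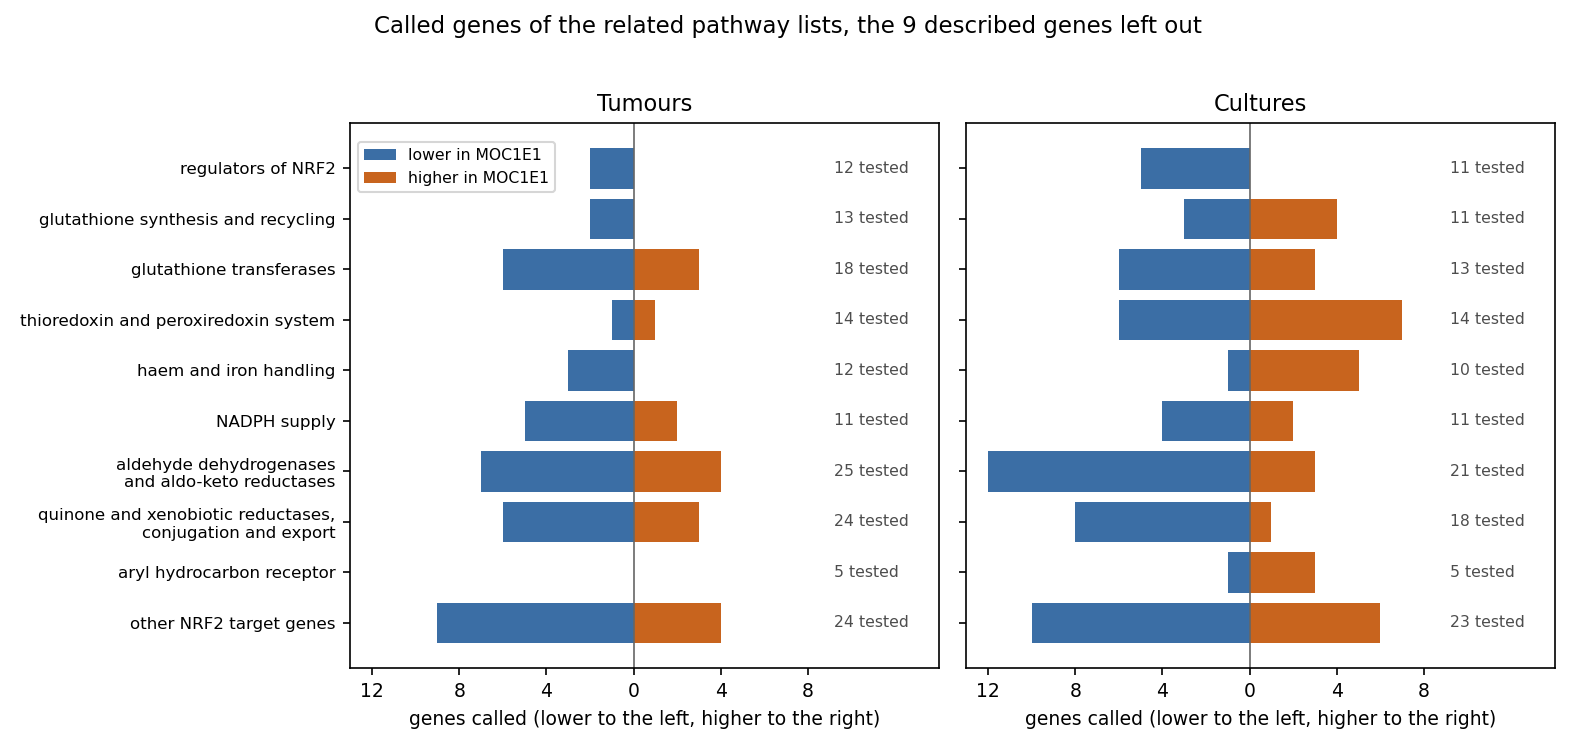
Number of genes in each pathway list called lower (left, blue) or higher (right, orange) in MOC1E1 than in MOC1, in tumours and in cultures, with the 9 described genes left out and the number tested beside each bar. In tumours the glutathione transferases have 6 lower and 3 higher, and in cultures the aldehyde dehydrogenases and aldo-keto reductases have 12 lower and 3 higher, or 11 and 7 with libraries scaled to the same median. Over all tested genes 11.9% were lower and 6.7% higher in tumours, and 33.2% lower and 20.2% higher in cultures.

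Candidates for likeness in pattern to each of the 9 were 9574 genes (9575 for Nqo1) with a mean of at least 5 TPM in tumours and in cultures. They were ranked by the root mean square difference of mean-centred log2(TPM + 1) over the 12 libraries. This is a description of likeness over 4 groups and says nothing of shared function. Nearest to Aldh3a1 was Prr15l at 0.328, to Gsto1 2310007B03Rik at 0.183 and Tspan1 at 0.209, and to Gsta4 the catalase gene Cat at 0.126. For Gclm the nearest were Nudt14 at 0.0996, Zbtb8os at 0.102 and Urod, an enzyme of haem synthesis, at 0.107. Nqo1 was nearest to Mpp7 at 0.155, Gclc to Prrg4 at 0.19, Hmox1 to Rps2 at 0.11 and Txnrd1 to Rad9a at 0.0775. None of the 9 genes was among the 3 nearest of another, where Nqo1 was no candidate because its mean was below 5 TPM. With 3 places among so many candidates, this does not show whether the 9 genes vary together.

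Hmox1 and Txnrd1 were also read in the immune cells of MOC1E1 tumours. The single-cell table held 3473, 4928 and 3127 cell barcodes with isotype control, anti-PD-1 and anti-CTLA-4, at median UMI counts (unique molecules per cell) of 4075, 4515 and 4066, and 3374, 4724 and 3038 cells were kept. The isotype and anti-PD-1 libraries shared 26 barcodes, and anti-CTLA-4 shared 13 with each of them. Aldh3a1 was absent from the gene names of the single-cell counts, so its level in these cells is unknown. The table held 10631 UMIs of Gclm, 3284 of Hmox1, 2820 of Txnrd1, 2513 of Gsto1, 896 of Gclc and 439 of Srxn1, but only 70 of Gsta4 and 27 of Nqo1. With 1 library per treatment there is no test between treatments, and the intervals given cover counting error only.

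Macrophage-like cells, 283 in the isotype, 573 in the anti-PD-1 and 191 in the anti-CTLA-4 library, came from 2 clusters. Cluster 1 was led by C1qb, C1qc and C1qa with Ccl24 and Cxcl9, and cluster 13 by Mmp12, Ccl8, H2-M2 and Ms4a7 with C1qa. Levels are given as CPM, the UMIs of a gene per 1000000 UMIs of the class, by library in the order isotype control, anti-PD-1 and anti-CTLA-4. Hmox1 was 183, 173 and 319.8 CPM in macrophage-like cells and 166, 364 and 226 CPM in neutrophil-like cells. Macrophage-like cells were thus the higher of the pair with isotype control and with anti-CTLA-4, where the 95% Poisson intervals of both classes overlapped, and neutrophil-like cells were the higher with anti-PD-1, where they did not. The unnamed cluster 0, led by Retnla and Ace, had 129, 148 and 55.2 CPM and monocyte-like cells 69.9, 108 and 51.4. The macrophage marker Mrc1 was among the leading genes of cluster 0, whose cells were not counted as macrophage-like. Hmox1 was at most 15.01 CPM in dendritic cell-like, 6.62 in T cell-like and 1.48 in NK cell-like cells of any library. It thus lay mainly in macrophage-like, neutrophil-like, monocyte-like and cluster 0 cells, whereas Txnrd1 was spread over nearly all classes. Txnrd1 was 81.3, 62.4 and 197 CPM in neutrophil-like cells, 63.65, 49.8 and 149 in macrophage-like cells and 62.6, 59.35 and 65.9 in NK cell-like cells. T cell-like cells had 39.0, 35.1 and 46.4 CPM and monocyte-like cells 24.3, 25.15 and 40.0. The unnamed cluster 17, led by mast cell proteases and granzymes, had 63.6, 64.4 and 97.4 CPM of Txnrd1, with 237 of its 278 cells in the anti-CTLA-4 library. The order of the classes for Txnrd1 therefore differed between libraries.

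By treatment, Hmox1 in macrophage-like cells was 183 CPM in the isotype library (95% Poisson interval 164 to 203), 173 CPM under anti-PD-1 (159 to 187) and 319.8 CPM under anti-CTLA-4 (277 to 367). By CPM the anti-CTLA-4 library stood above the other two, whose intervals overlapped. The log2 ratio to isotype was -0.0841 (95% interval -0.277 to 0.111) under anti-PD-1, which moved to -0.449 when the class was read from each cell's own transcripts and turned to 0.148 in cells thinned to 2000 UMIs. Under anti-CTLA-4 it was 0.806 (0.548 to 1.06). The intervals of CPM and of these ratios take UMIs as independent and leave out spread between cells. In the isotype library 342 UMIs of Hmox1 lay in 76 of the 283 macrophage-like cells. A UMI of Hmox1 was found in 26.9%, 37.0% and 35.1% of macrophage-like cells in the same order. In T cell-like cells, a class with little Hmox1 by CPM, it was 1.48%, 2.26% and 2.49%. The median depths were 6060, 5662 and 2252 UMIs in macrophage-like and 3996, 4008 and 4229 in T cell-like cells. Thinned to 2000 UMIs per cell, which left out 43, 101 and 90 cells, the shares were 11.7%, 21.4% and 20.8%. By share the anti-CTLA-4 library did not exceed the anti-PD-1 library, thinned or not. In monocyte-like cells and in the unnamed cluster 0, which has Mrc1 among its leading genes, Hmox1 CPM was lowest with anti-CTLA-4, as given above.

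Txnrd1 in macrophage-like cells was 63.65 CPM in the isotype library (95% Poisson interval 52.7 to 76.2), 49.8 CPM under anti-PD-1 (42.7 to 57.7) and 149 CPM under anti-CTLA-4 (120.3 to 182). As with Hmox1, the anti-CTLA-4 library was the highest. The log2 ratio to isotype was -0.354 (-0.697 to -0.00731) under anti-PD-1, a direction that turned to 0.115 in thinned cells. Under anti-CTLA-4 it was 1.23 (0.819 to 1.63). Shares with a UMI were 23.3%, 23.2% and 31.4%, against 16.3%, 14.1% and 17.65% in T cell-like cells. Thinned shares were 7.92%, 9.75% and 22.8% in macrophage-like cells and 8.36%, 5.77% and 8.86% in T cell-like cells, so only the anti-CTLA-4 share lay well above the T cell-like one. Neutrophil-like cells also had their highest Txnrd1 with anti-CTLA-4, at 197 CPM (147 to 257) against 81.3 and 62.4, while their Hmox1 was highest with anti-PD-1 at 364 (325 to 406.5). By CPM Txnrd1 was highest with anti-CTLA-4 in every class with a level in all 3 libraries, and not in macrophage-like cells alone. Dendritic cell-like cells had 27.0, 25.3 and 44.6 CPM, cluster 0 had 45.4, 64.7 and 89.3 and cluster 16 had 41.4, 40.7 and 53.3. In NK cell-like cells the intervals of all 3 libraries overlapped.

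The 2 macrophage-like clusters were mixed differently in the libraries, with 92 of 283, 132 of 573 and 66 of 191 cells from cluster 13. Within cluster 1 Hmox1 was 123, 129.5 and 198 CPM, and within cluster 13 551, 652.5 and 962, with isotype control, anti-PD-1 and anti-CTLA-4. Txnrd1 was 66.0, 51.2 and 154.5 in cluster 1 and 49.4, 34.0 and 119 in cluster 13. The share of cells with a UMI of Hmox1 was 29.8%, 38.55% and 27.2% in cluster 1 and 20.65%, 31.8% and 50% in cluster 13. By CPM the anti-CTLA-4 library was highest for both genes within each cluster, with 12 UMIs of Txnrd1 behind its cluster 13 value. The macrophage-like cells of that library were also shallower, as given above, and 9 of the 11 macrophage markers were lowest there, 7 of them with an interval below those of both other libraries. C1qa was 2727, 3293 and 1001 CPM and Apoe 2163, 2652 and 627, while Csf1r was 757, 722 and 586 and Cd68 518, 557 and 434. Of the other markers Mrc1, at 55.1, 43.35 and 44.3, lay between the other libraries, and Pf4, at 25.7, 17.9 and 168, was highest with anti-CTLA-4. The T cell gene Cd3e was 2.14, 48.1 and 63.3 and the neutrophil gene S100a8 95.2, 48.4 and 22.2 in the same order. The part of depth and of these other transcripts in the higher Hmox1 and Txnrd1 was not tested.

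**Figure D5:**
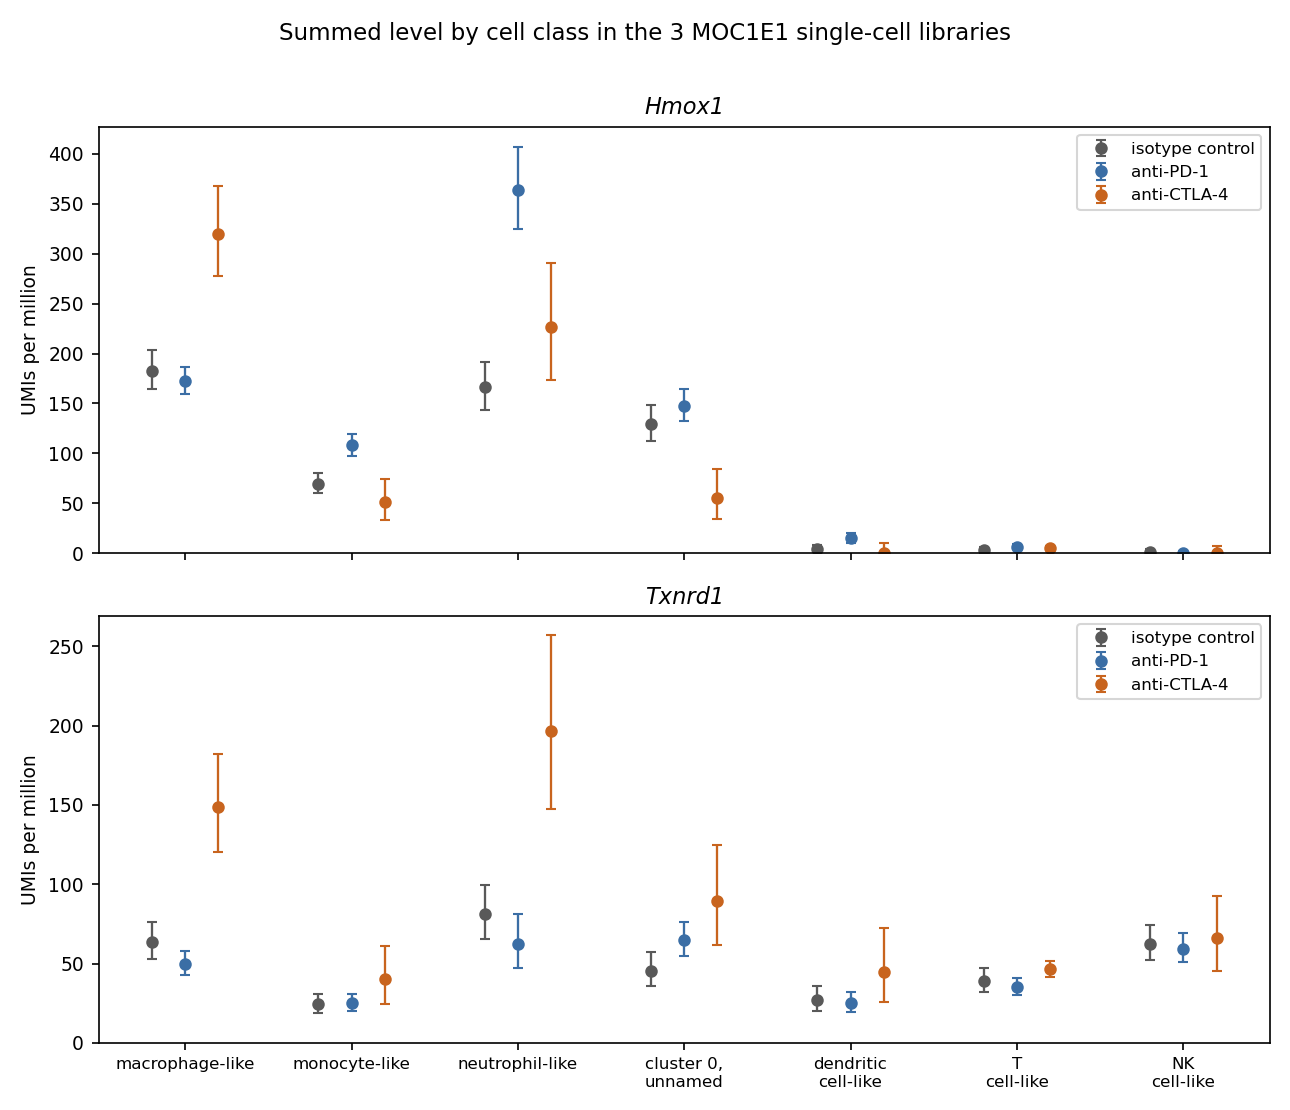
Summed Hmox1 (top) and Txnrd1 (bottom) CPM in cell classes of the 3 MOC1E1 single-cell libraries, 1 library per treatment, with exact 95% Poisson intervals as error bars. In macrophage-like cells anti-CTLA-4 lies highest for both genes, at 319.8 and 149. For Txnrd1 it lies highest in every class shown. For Hmox1 it lies lowest in monocyte-like cells and in the unnamed cluster 0, and T cell-like and NK cell-like cells lie near 0.

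Of the other members, Gclm in macrophage-like cells was 137, 123 and 209 CPM with isotype control, anti-PD-1 and anti-CTLA-4, a log2 ratio of 0.61 (0.296 to 0.918) for anti-CTLA-4. This order was not particular to macrophage-like cells. Gclm was also highest with anti-CTLA-4 in T cell-like (164, 189 and 257), NK cell-like (153, 169 and 297) and dendritic cell-like cells (129, 192 and 251). In cluster 17 it was highest with anti-PD-1 (183, 239 and 230). Gsto1 in macrophage-like cells moved the other way, at 90.9, 75.2 and 55.4, a log2 ratio of -0.715 (-1.28 to -0.183) for anti-CTLA-4. Gclc was 13.9, 8.11 and 19.0 and Srxn1 19.3, 14.5 and 19.0, and the intervals of their ratios included 0. Gsta4 had 0, 5 and 0 UMIs and Nqo1 1, 1 and 0, so that neither could be compared. A count of 0 among the 631649 UMIs of the anti-CTLA-4 macrophage-like cells allows up to 4.75 CPM. Nfe2l2 was 226, 228.5 and 250.1 CPM, with overlapping intervals. Slc7a11, the cystine importer that feeds glutathione synthesis, was 74.9, 54.3 and 193, Txn1, the substrate of Txnrd1, 428, 475.5 and 919.8, and Fth1, which stores the iron that Hmox1 frees, 16860, 22650 and 34770. These 3 were named after their values were seen, from 18 genes of haem, glutathione, thioredoxin and NRF2 biology read in these cells. Of the 18, 11 were highest and 4 lowest with anti-CTLA-4, 2 lay between the other libraries and Cd163 had no UMI. The anti-CTLA-4 interval lay above both others for 5 genes, which were the 3 named, Ftl1 and Prdx1, and below both for 0. How many of all genes lay highest or above both others was not counted, so these counts have no background to be read against. The haem breakdown enzyme Blvra was lowest, at 68.5, 62.4 and 42.75 CPM, while Hmox2 was 110, 116 and 101, Slc48a1 59.4, 66.3 and 55.4, Sqstm1 203, 221 and 217 and G6pdx 43.9, 32.4 and 38.0, all with overlapping intervals.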

How the data were processed

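RNA was measured in 12 bulk libraries (4 groups of 3) and in 3 MOC1E1 single-cell libraries. The deposited bulk tables hold TPM, each column summing to the fixed TPM total, so depth is unknown; the deposited single-cell table holds whole UMI counts per gene and barcode. The submitters' processing notes name Trimmomatic 0.36, kallisto 0.46.0, Cell Ranger 3.0.2, Seurat and DESeq2 and the builds mm10 and GRCh38, without their roles. Per the labels, bulk libraries used an Illumina mRNA kit and single cells a 10x 5' kit; a count test would have needed read counts, so the planned fallback for TPM was used.

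Gene identifiers were matched to symbols through the deposited feature list (30958 of 55573 named there, 55471 in all with the reference names). A gene was tested where 3 libraries of the comparison reached a TPM of 1. log2(TPM + 1) was fitted with limma 3.58.1 and an intensity trend (R 4.3.3; tables read with version 1.17.8 of data.table), with Benjamini-Hochberg adjustment over all tested genes. This scale understates the change of low genes such as Nqo1. The fit was tested on simulated data. The members, lists and tests were chosen with earlier results of these data known. Named are all 9 members, the 3 called genes with the smallest p of each list in each comparison, and the 3 nearest genes of each member, of which the report prints the first and a few others (that of Srxn1 is not reported here); exceptions are marked. Marker sums are sums of TPM in tumour RNA and count no cells; the red blood cell sum was 21.6 to 82.4 TPM in MOC1 and 11.9 to 25.9 TPM in MOC1E1 tumours. B cell markers summed to at most 1.49 TPM, fat markers to 45.8 to 58.0 against 2.46 to 42.1 TPM, and endothelial markers to 33.2 to 44.2 against 31.7 to 35.6 TPM.

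Cells needed 300 or more genes and no more than 10% of UMIs from mitochondrial genes, although the table holds none above 5.00%. The highest scrublet scores were removed at 0.8% per 1000 cells. Cells were scaled to 10000 counts and clustered on 2000 variable genes, 30 components and 15 neighbours at leiden resolution 1 (scanpy 1.11.5, leidenalg 0.10.2, scikit-learn 1.9.0, scipy 1.17.1 and Python 3.11.15). Cluster names rest on a list of cell type markers. Poisson and binomial intervals are exact at 95%. CPM values refer to all UMIs of a class, and a count of 0 was read as allowing 3 counts. Alternatives changed the pseudocount, filter, scaling, trend, spread, libraries, cell filter, doublets, class rule, resolution and depth.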

Additional observations from a re-analysis of the deposited data

Results flagged for a closer look

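For 6 of the 9 genes the difference between the lines itself differed between tumours and cultures, by limma's test over the 12 libraries (adjusted over 16813 genes). The tumour difference minus the culture difference was -2.35 for Aldh3a1 (adjusted p = 0.000547), -1.24 for Gsto1 (3.65e-05), -0.946 for Srxn1 (0.000127) and -0.671 for Gsta4 (0.00142). For Gclc it was -0.776 (adjusted p = 0.031) and for Txnrd1 -0.445 (0.0395), calls lost in 11 and 12 of 19 alternative settings. Aldh3a1 was lower in MOC1E1 tumours and not called in cultures, Gsto1 and Gsta4 were lower at both sites and Srxn1 changed direction. Gclc and Txnrd1 were called only in cultures, where they were higher, though with the spread from all 12 libraries Gclc was called only in tumours, as lower. The tumour and culture tables carry other cells and other growth conditions, and their part in these 6 values was not tested.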

How the results depend on the processing

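No result on the 9 bulk genes changed direction past its threshold. Over all alternatives, 387 values for single genes stayed as they were, whether called or not called, while 24 lost a call and 9 gained one. Leaving out each library in turn gave 5 called members in tumours, 8 in cultures and 4 to 6 for the difference between the sites; the count over all genes was then 1273 to 2645 in tumours (2820 with all libraries), 6168 to 6653 in cultures and 2011 to 3012 between the sites. With the spread taken from all 12 libraries, 5285 genes were called in tumours. Besides the changes given with Gclc, Txnrd1 and Nqo1, the site difference of Hmox1 was called under median scaling (-0.464), quantile normalization (-0.432) and without MOC1 tumour 4 (-0.458). Median scaling and quantile normalization moved the share of higher calls from 36% to 48.8% and 54.3% in tumours and from 37.8% to 55.6% and 54.7% in cultures, and median scaling moved it from 60.7% to 50.4% between the sites. Of 939 alternative values for the genes named from the lists, 52 lost their call, 2 gained it and none reversed. In macrophage-like cells the log2 ratio of Hmox1 with anti-PD-1 was -0.449 when the class was read from each cell's own transcripts and 0.148 in cells thinned to 2000 UMIs, where that of Txnrd1 turned to 0.115. With anti-CTLA-4 the ratios stayed between 0.587 and 0.876 for Hmox1 and between 0.95 and 1.53 for Txnrd1; the causes were not tested. No paired analysis was possible because the bulk columns carry numbers of which the tumour groups share 1 and the culture groups none. Bulk depth is unknown, and the few Nqo1 and Gsta4 UMIs limit what single cells show.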
